A study of Vigna unguiculata subsp. sesquipedalis with 24 samples.

Results

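The 165 unigenes described here had higher mean signals in drought leaves than in well-watered leaves and lower mean signals in drought roots than in well-watered roots, in both lines of asparagus bean (Vigna unguiculata subsp. sesquipedalis) that were compared. They were taken from the 29471 unigenes (assembled transcript sequences) of a custom expression array. A unigene was kept when its mean log2 intensity differed by more than 0.7 in each of the 4 drought comparisons, upward in leaf and downward in root, and when at least 1 of its 8 group means was 8 or more. One log2 unit is a 2-fold difference. In all 173 unigenes met the 4 difference limits, 8 of them missed the minimum level, and the 165 left were ranked by the smallest of their 4 differences. The opposite pattern, lower in leaf and higher in root under the same limits, was met by 175 unigenes. The unigenes were thus chosen by their 4 drought differences, which are given below as a description with no test.

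B128, labelled isohydric like, and B47, labelled anisohydric like, are landraces, and each was sampled as leaf (leaflets of the first trifoliate leaf) and as root. The paper reports B47 as the more sensitive of the lines to drying soil and proposes that it avoided dehydration most effectively. The labels of water behaviour are therefore given only as written, and nothing is read from them. Drought plants had their irrigation withheld from an age of 16 days and were harvested on day 15 of the treatment together with well-watered plants of the same age. Every line, organ and treatment was hybridised on 3 arrays, each holding RNA mixed from the 2 plants of a pot, which gave 24 arrays in 8 groups. A single harvest day was sampled. The median intensity of the arrays lay between 1506.4 and 1580.8. The lowest correlation between replicates within a group was 0.96, in B128 well-watered leaf, against 0.974 to 0.988 in the other groups.

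One of the labels of the 6 drought root arrays calls them root and another describes leaves, and they were treated as root. Over all unigenes these 6 arrays correlated at 0.863 to 0.909 with the well-watered root arrays and at 0.703 to 0.799 with the leaf arrays. Of 25 unigenes described as light-harvesting proteins, photosystem subunits and related chlorophyll-binding proteins, 25 were higher in leaf than in root in drought B128, drought B47 and well-watered B47, and 23 were so in well-watered B128. Their median leaf minus root difference was 2.60 in drought B128 and 5.35 in well-watered B128, and 2.75 in drought B47 and 4.98 in well-watered B47. A further leaf marker, UP12_16180, described as the small chain of RuBisCO, was left out of these 25. It belongs to the unigenes chosen here. Its mean was lower in leaf than in root in both lines and treatments. It was 11.25 in leaf and 11.52 in root in drought B128, and 6.57 and 12.95 in well-watered B128. In B47 it was 11.68 and 11.86 under drought, and 6.78 and 13.42 when well-watered. The only root marker found, UP12_16535, described as the iron transporter Fe(2+) transport protein 1, averaged 4.41 in drought B128 roots and 13.11 in well-watered B128 roots, and 4.06 and 13.45 in the same groups of B47. Its leaf means lay between 7.55 and 8.35, so this marker was above leaf in well-watered roots and below leaf in drought roots.

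Soil drought reaches the root first, and plants respond with abscisic acid, a hormone that closes stomata and changes the transcription of many genes in both organs. Organs differ in what they then make: leaves lose photosynthetic capacity and build up cuticle, protective metabolites and defence proteins, while roots change growth, wall formation and uptake. The arrays were hybridised with RNA of whole leaflets or roots, so fewer cells of a type and less RNA per cell cannot be told apart.

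Names come from best-match Arabidopsis descriptions in the gene tables of the study, which list unigenes that it found to be drought-regulated. Of the 165 unigenes, 76 are in those tables, 53 of them with a stated function, 9 without one and 14 without a match. The other 89 are given by code only. The tables list 2757 unigenes in all, so counts of the 165 within a list stand beside 76 of 2757. The protein roles named below are those of the matched Arabidopsis or plant family.

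The median drought minus well-watered difference of the 165 was 1.61 in B128 leaf (range 0.71 to 6.38), 1.37 in B47 leaf (0.70 to 5.88), -1.38 in B128 root (-6.72 to -0.70) and -1.45 in B47 root (-5.84 to -0.71). Over all unigenes these medians were 0.05, 0.08, 0.11 and 0.11. The median standard error (SE) of a difference was 0.34. All 4 differences were at least 2-fold for 69 unigenes and at least 4-fold for 8. The mean leaf increase exceeded the mean root decrease in 84, and the reverse held in 81. With limma's moderated test, a fold change of at least 2 and a false discovery rate (FDR) of at most 0.01 over all unigenes, 105 of the 165 were called higher in B128 leaf (6.31% of all unigenes), 99 higher in B47 leaf (7.86%), 100 lower in B128 root (11.2%) and 110 lower in B47 root (11.6%). These shares describe the choice and nothing is read from them. 38 were called in all 4 comparisons, as were 39 of all unigenes (0.132%). The 3 drought and the 3 well-watered arrays were apart in all 4 comparisons for 117 unigenes, and for 313 of all unigenes in the same directions (1.06%). They were apart in 3 comparisons for 34 and in 2 or fewer for the rest. By comparison the arrays were apart for 144 in B128 leaf (27.0% of all unigenes upward), 154 in B47 leaf (33.4%), 140 in B128 root (21.9% downward) and 154 in B47 root (24.6%).

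**Figure D1:**
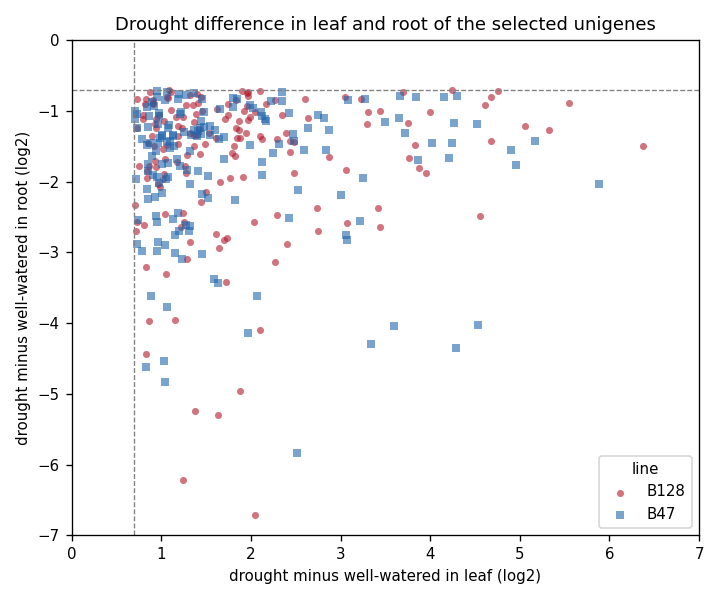
Drought minus well-watered difference in leaf (horizontal, log2) and in root (vertical, log2) of the 165 unigenes, with B128 as red circles and B47 as blue squares; the dashed lines mark the limits of 0.7 used in the choice. Leaf differences reached 6.38 and root differences -6.72, and the unigenes furthest along one axis were not those furthest along the other.

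The last unigenes inside the limits were UP12_6783, UP12_19618 and UP12_19085, with smallest differences of 0.704, 0.7011 and 0.7003. The first outside were UP12_4466, just under the limit, and UP12_29356 and UP12_5188, both at 0.6998. Nothing separated these neighbours beyond the limit itself. When each of the 24 arrays was left out in turn, 144 to 181 unigenes met the rule, and 81 of the 165 met it under every omission.

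The chloroplast enzyme RuBisCO fixes carbon dioxide, and its small subunit is encoded in the nucleus. Both unigenes described as RuBisCO belonged to the 165. UP12_16180, small chain 1A, had log2 intensities of 10.87, 11.72 and 11.17 in drought B128 leaves against 5.62, 7.06 and 7.03 in well-watered ones, and 11.58, 11.48 and 11.97 in drought B47 leaves against 6.34, 7.87 and 6.13. In B128 roots it had 11.30, 12.26 and 11.01 under drought against 13.01, 12.74 and 13.09, and in B47 roots 11.95, 12.34 and 11.30 against 13.13, 13.73 and 13.38. Drought and well-watered arrays were apart everywhere, and the lowest of the 4 conditions was the well-watered leaf. Limma called the root difference in B47 (FDR 0.00653) but not in B128 (FDR 0.0116). The second unigene, UP12_13963, differed by 5.33 in B128 leaf, 5.17 in B47 leaf, -1.27 in B128 root and -1.42 in B47 root (SE 0.55), and its values correlated with those of UP12_16180 at 0.996 over the 24 arrays. Neither root difference of UP12_13963 was called by limma (FDR 0.0626 in B128 and 0.038 in B47). Averaged over lines and treatments both were lower in leaf than in root, at -3.37 each (FDR 2.39e-11 and 7.94e-10), the opposite of the 25 chlorophyll-binding and photosystem unigenes. These organ levels do not bear out the description of the 2 unigenes. Whether their probes detect RuBisCO transcripts, and of which gene copies, was not tested. Of all 35 listed unigenes whose descriptions hold photosynthesis words, 5 were called higher and 22 lower in drought B128 leaf, and 5 higher and 14 lower in drought B47 leaf. Their median differences were -2.23 and -0.85, beside -0.35 and -0.55 over all 2757 listed unigenes. Of those 2757, 903 were called higher and 1085 lower in drought B128 leaf, and 808 higher and 1127 lower in drought B47 leaf. Unigenes were listed because the study found them drought-regulated, so calls within any list given here are a description.

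Cytidine and deoxycytidylate deaminases recycle pyrimidine nucleotides, and all 3 unigenes with that family description were among the 165. UP12_3010 had the largest B128 leaf difference of the 165: 11.69, 12.32 and 12.06 in drought B128 leaves against 5.01, 5.86 and 6.06 in well-watered ones. In B47 leaves it had 12.88, 13.33 and 11.23 under drought against 7.52, 8.40 and 6.65. In roots it had 11.41, 12.22 and 11.07 in drought B128 against 13.58, 12.54 and 13.07, and 12.40, 13.17 and 10.95 in drought B47 against 14.24, 13.67 and 13.89. Drought leaves overlapped drought roots, while well-watered leaves were far below every root array. UP12_9505 differed by 5.55 and 4.30 in B128 and B47 leaf but only by -0.89 and -0.79 in their roots, and UP12_15713 by 4.76, 4.16, -0.72 and -0.80. UP12_9505 had overlapping drought and well-watered arrays in B47 root, and none of the 3 was called lower in either root. The 3 correlated pairwise at 0.992 to 0.995 over the 24 arrays, which share the treatment groups, and signal from near-identical transcripts could not be separated. They were lower in leaf than in root, at -3.27, -2.84 and -2.49 (SE 0.28, 0.24 and 0.22).

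**Figure D2:**
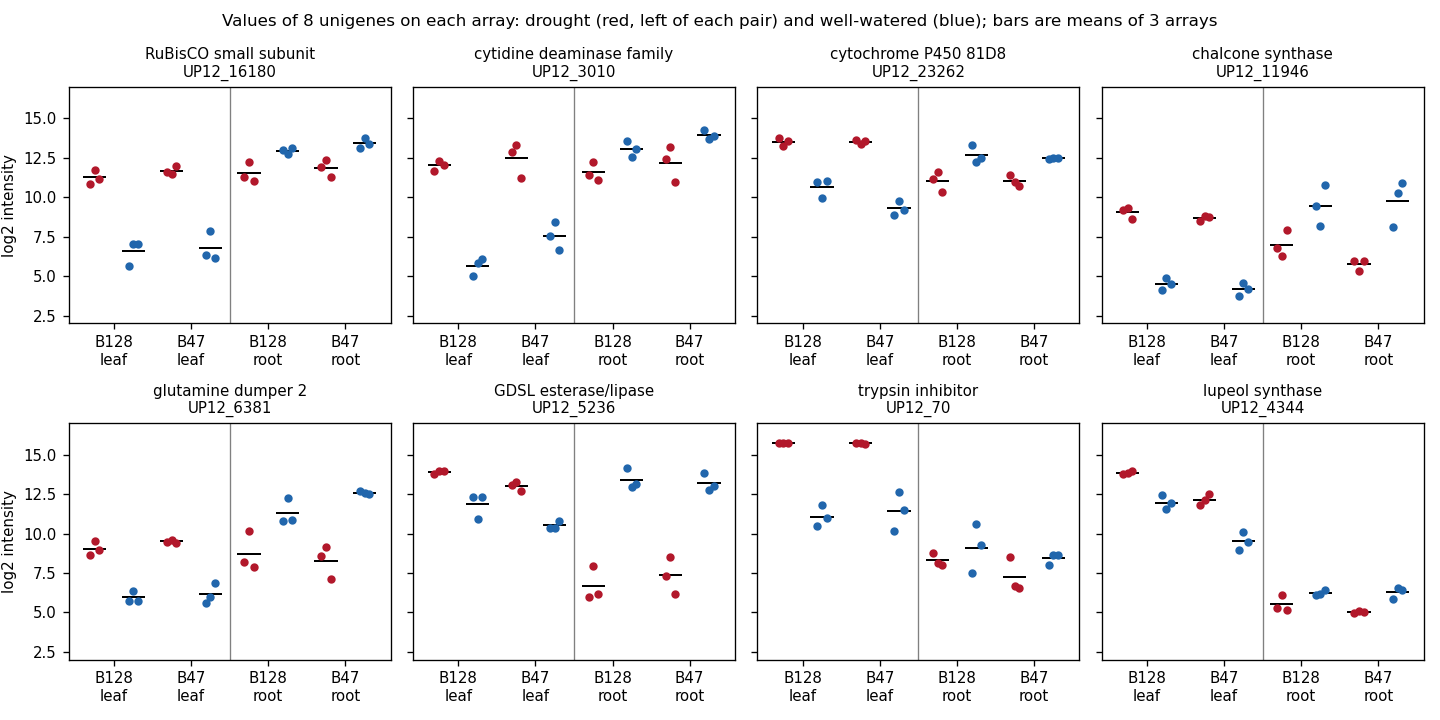
Log2 intensity of 8 unigenes on each of the 24 arrays; points are arrays, bars are means of 3, and drought (red) stands left of well-watered (blue) for each line and organ. RuBisCO UP12_16180 and the deaminase UP12_3010 were lowest in well-watered leaves, whereas the trypsin inhibitor UP12_70 and lupeol synthase UP12_4344 were in both treatments higher in leaf than in root.

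Cytochrome P450 enzymes oxidise small molecules in hormone, defence and detoxification pathways. Among 5 listed unigenes of family 81 subfamily D, 3 belonged to the 165, all described as polypeptide 8. UP12_23262 had 13.78, 13.22 and 13.59 in drought B128 leaves against 10.99, 9.97 and 11.03 in well-watered ones, and 13.65, 13.39 and 13.54 in drought B47 leaves against 8.87, 9.78 and 9.22. Its root values were 11.15, 11.61 and 10.34 in drought B128 against 13.30, 12.23 and 12.51, and 11.42, 10.95 and 10.73 in drought B47 against 12.43, 12.51 and 12.52. The organ with the higher signal was thus leaf under drought and root under good water supply, and the mean of the 2 treatments differed between organs by only -0.06 (FDR 0.767). UP12_6824 and UP12_2804 had the same directions, with leaf differences of 1.87 to 4.52 and root differences of -1.83 to -1.09, and the 3 correlated at 0.939 to 0.994. UP12_3887, described only by the superfamily, differed by 2.63 and 3.66 in B128 and B47 leaf and by -1.09 and -0.79 in root. There were 3 further P450 unigenes, of which UP12_13856 was also described only by the superfamily. UP12_13856 differed by 0.83 in both leaves and by -4.43 and -4.62 in B128 and B47 root, with most leaf arrays near the floor of the scale. UP12_14655, P450 71B34, differed by 2.40 in B128 leaf and 1.99 in B47 leaf, and by -2.88 in B128 root and -1.49 in B47 root. UP12_10633, P450 78A5, an enzyme of organ growth in Arabidopsis, differed by 2.74 in B128 leaf and 0.73 in B47 leaf, and by -2.37 in B128 root and -2.88 in B47 root. The redox and detoxification list as a whole held 137 listed unigenes, 9 of them among the 165, with 25 called higher and 77 lower in drought B128 leaf and 20 higher and 74 lower in drought B47 leaf. Over all 2757 listed unigenes, 76 of them among the 165, the numbers were 903 higher and 1085 lower in B128 leaf, and 808 and 1127 in B47 leaf.

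The flavonoid and phenylpropanoid list held 41 unigenes with 1 of the 165, beside 76 of the 165 among all 2757 listed unigenes. Chalcone synthase makes the first flavonoid intermediate. Of 9 unigenes so described, UP12_11946, at rank 3, was the only one among the 165. It had 9.18, 9.34 and 8.63 in drought B128 leaves against 4.12, 4.85 and 4.52, and 8.51, 8.80 and 8.74 in drought B47 leaves against 3.77, 4.53 and 4.16. In drought B128 roots it had 6.77, 6.27 and 7.93 against 9.44, 8.18 and 10.78, and in drought B47 roots 5.95, 5.33 and 5.94 against 8.14, 10.25 and 10.89. The arrays did not overlap in any of the 4 comparisons. It was the only chalcone synthase called in drought B128 leaf, where the median of the 9 was -0.44, and in drought B47 leaf 1 was called higher and 6 lower with a median of -3.44. UP12_9208, laccase 7, from the family that polymerises lignin units, differed by 3.83 and 2.31 in B128 and B47 leaf and by -1.48 and -1.47 in root. UP12_11648 and UP12_15845, both of an O-methyltransferase family, differed by 3.76 and 2.17 in B128 leaf, 3.60 and 1.45 in B47 leaf, -1.67 and -0.91 in B128 root and -4.04 and -3.02 in B47 root. Of the wall enzymes, UP12_16440, endoxyloglucan transferase A4, which cuts and rejoins xyloglucan chains, differed by 1.40 and 1.28 in leaf and by -1.34 and -2.62 in root. It was the only one of 11 listed xyloglucan unigenes called higher in drought B128 leaf, none was in drought B47 leaf, and all 11 were called lower in both drought roots. UP12_3210, polygalacturonase QRT3, a pectin-degrading enzyme, differed by 2.35 and 1.70 in B128 and B47 leaf and by -1.06 and -1.36 in root. The cell wall and lignin list held 113 unigenes with 3 of the 165, and 87 and 88 of the 113 were called lower in drought B128 and B47 root. Over all 2757 listed unigenes, 1148 and 1141 were called lower in those roots.

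Triterpene synthases fold squalene epoxide into the ring skeletons of surface waxes and saponins. Of 6 listed unigenes described as camelliol, lupeol or amyrin synthases, all 6 were called higher in both drought leaves, and 3 belonged to the 165. Over all 2757 listed unigenes, 903 were called higher in drought B128 leaf and 808 in drought B47 leaf. UP12_11259, camelliol C synthase 1, had 13.95, 14.05 and 14.07 in drought B128 leaves against 7.86, 9.77 and 9.26, and 12.46, 12.70 and 12.79 in drought B47 leaves against 8.64, 9.44 and 7.82. Its root arrays of B128 overlapped between treatments (7.61, 9.40 and 6.89 under drought, 9.55, 9.02 and 8.99 when well-watered), and those of B47 did not. Neither root difference was called by limma (FDR 0.0501 in B128 and 0.0213 in B47). UP12_4538, with the same description, differed by 3.44 and 3.65 in B128 and B47 leaf and by -1.0 and -1.1 in root. The 2 differed in organ: UP12_11259 was higher in leaf than in root by 2.77 (FDR 3.85e-09) and UP12_4538 lower in leaf, at -1.09 (FDR 2.31e-07). Their correlation over the 24 arrays was 0.438. The lupeol synthase UP12_4344 is described with the line differences.

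GDSL esterases and lipases act on cutin and other esters. Of 17 listed, 3 were among the 165. UP12_5236, at rank 7, had 13.78, 13.96 and 13.94 in drought B128 leaves against 12.32, 10.93 and 12.29, and 13.08, 13.29 and 12.69 in drought B47 leaves against 10.38, 10.36 and 10.80. In roots it had 5.99, 7.96 and 6.16 in drought B128 against 14.18, 12.96 and 13.12, and 7.33, 8.53 and 6.20 in drought B47 against 13.82, 12.74 and 13.01. These were the largest root differences of the 165 in both lines, -6.72 and -5.84 (SE 0.54), and well-watered roots overlapped drought leaves. UP12_5846, named EXL3, differed by 3.31 and 3.06 in leaf and by -1.02 and -2.76 in root, and UP12_7695 by 2.61, 1.99, -0.82 and -0.92. UP12_5846 was higher in leaf than in root by 2.93 and UP12_7695 lower in leaf, at -2.51.

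Kunitz trypsin inhibitors block digestive proteases of insects and are common in legumes. All 3 unigenes described as trypsin inhibitors belonged to the 165. UP12_70 had 15.73, 15.74 and 15.76 in drought B128 leaves against 10.46, 11.79 and 10.96, and 15.75, 15.72 and 15.69 in drought B47 leaves against 10.19, 12.65 and 11.50. The 6 drought leaf arrays lay at the top of the scale, where the highest unigene of an array was at 15.72 to 15.89, and whether these spots were saturated was not tested. In roots it had 8.78, 8.15 and 8.00 in drought B128 against 7.47, 10.58 and 9.29, and 8.54, 6.69 and 6.56 in drought B47 against 7.97, 8.67 and 8.64. The root arrays overlapped in both lines, so the root part of the pattern rests on means of -0.81 and -1.17 with an SE of 0.65. UP12_11343, Kunitz trypsin inhibitor 1, also overlapped in both roots, with leaf differences of 3.69 and 2.75. UP12_11552 was apart in all 4 comparisons, at 2.27 and 2.42 in leaf and -0.84 and -1.02 in root. None of the 3 inhibitors was called lower in either root. In contrast to the RuBisCO and deaminase unigenes, all 3 were higher in leaf than in root, by 5.22, 4.17 and 3.50. For UP12_70 and UP12_11552 the FDR was 1.22e-11 and 6.92e-14. UP12_11343 met the minimum level of 8 only in leaf, so its organ difference is a description.

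Members named for hormones, signalling and transcription came from several families. Their counts within the lists stand beside 76 of the 165 among all 2757 listed unigenes. UP12_6305, abscisic acid receptor PYL2, was the only member of the 46-unigene abscisic acid and dehydration list. It had 8.63, 8.59 and 8.42 in drought B128 leaves against 7.23, 7.20 and 6.96, and 8.33, 8.36 and 8.58 in drought B47 leaves against 7.79, 7.03 and 7.86. In roots it had 4.17, 4.65 and 4.71 in drought B128 against 6.30, 5.61 and 5.37, and 4.72, 5.12 and 4.86 in drought B47 against 6.92, 5.73 and 5.24. Of 7 listed PYL unigenes it was the only one called higher in drought B128 leaf, where the other 6 were called lower. In drought B47 leaf none was called higher and the other 6 lower, and PYL2 was not called there, at 0.86 (FDR 0.0395). All 7 were called lower in both drought roots, as were 1148 and 1141 of all 2757 listed unigenes in B128 and B47 root. UP12_26316, CIPK7, a kinase activated by calcineurin B-like calcium sensors, differed by 1.02 and 1.19 in B128 and B47 leaf and by -1.96 and -2.44 in root. Among kinases, the receptor-like UP12_14035 and UP12_1705 had leaf differences of 1.01 to 3.28 and root differences of -1.75 to -0.80. UP12_11992, described as 12-oxophytodienoate reductase, the family that includes a jasmonate synthesis enzyme, differed by 1.28, 0.84, -1.63 and -2.10. Transcription factor words matched 6 of the 165 among 211 listed, but only 3 of the 6 are regulators by name: MYB36 (UP12_9339), which in Arabidopsis specifies the root endodermis, the homeobox factor HAT22 (UP12_9678) and the zinc finger protein UP12_24484. MYB36 differed by 1.46, 1.44, -0.99 and -1.33 and was lower in leaf than in root, at -2.80. HAT22 differed by 1.28, 1.22, -0.91 and -1.01 and was not called between organs, at 0.15. UP12_24484 differed by 0.93, 1.52, -1.71 and -2.23. UP12_33, a VQ motif protein of the group that binds WRKY factors, differed by 3.23 in B128 leaf and 1.40 in B47 leaf and by -0.83 and -1.35 in their roots.

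Sugar enzymes included UP12_17423, a probable fructokinase-2, which phosphorylates fructose. It had 12.37, 12.17 and 12.33 in drought B128 leaves against 10.86, 10.82 and 10.91, and 12.53, 12.53 and 12.40 in drought B47 leaves against 10.92, 10.92 and 11.06. In roots it had 11.84, 11.99 and 12.07 in drought B128 against 13.30, 13.82 and 13.62, and 11.62, 11.34 and 12.10 in drought B47 against 13.22, 13.92 and 13.68. Replicates were close, with an SE of 0.18, and no group overlapped its pair. UP12_2655, probable trehalose-phosphate phosphatase I, which makes trehalose from its phosphate, had the larger part of its difference in root: -2.82 in B128 and -3.77 in B47, against 1.70 and 1.06 in leaf. UP12_9978, pyruvate kinase, the last step of glycolysis, differed by 2.10, 2.12, -1.36 and -1.07. UP12_28611, the peroxisomal fatty acid oxidation protein MFP2, differed by 2.13, 1.60, -1.40 and -1.27, and UP12_26041, acyl carrier protein 3, by 1.73, 0.73, -2.80 and -1.24.

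Of the 8 ranked first, UP12_9400 matched the Arabidopsis locus AT5G25610, the dehydration-responsive gene RD22. It had 7.66, 6.57 and 7.81 in drought B128 leaves against 3.93, 4.00 and 3.79, and 7.15, 6.83 and 7.60 in drought B47 leaves against 4.40, 4.06 and 3.91. In roots it had 4.75, 7.71 and 4.12 in drought B128 against 8.79, 7.90 and 7.83, and 4.19, 5.50 and 4.19 in drought B47 against 9.23, 6.41 and 6.73. The B128 drought root array at 7.71 lay just under its well-watered group. UP12_6381, glutamine dumper 2, from a family of membrane proteins that affect amino acid export, had 8.61, 9.53 and 8.93 in drought B128 leaves against 5.75, 6.35 and 5.74, and 9.46, 9.61 and 9.43 in drought B47 leaves against 5.58, 6.00 and 6.89. Its root values were 8.17, 10.16 and 7.86 in drought B128 against 10.80, 12.27 and 10.89, and 8.59, 9.15 and 7.12 in drought B47 against 12.67, 12.57 and 12.49. For both, replicate 2 was the highest of the 3 drought root arrays in each line, as it also was for UP12_354, which has no match. UP12_354 differed by 3.42, 4.28, -2.37 and -4.35 in B128 leaf, B47 leaf, B128 root and B47 root. UP12_18945, UP12_2328 and UP12_25440 are known by code only, with leaf differences of 2.04 to 3.21 and root differences of -3.14 to -2.19.

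Further unigenes with a described function had these differences in B128 leaf, B47 leaf, B128 root and B47 root. UP12_4211, endonuclease 2, which cuts nucleic acids, differed by 1.38, 1.23, -5.24 and -3.10. Its B128 leaf arrays overlapped, at 12.85, 12.36 and 12.94 under drought against 8.67, 12.83 and 12.53. That leaf difference thus rests on 1 low well-watered array. Limma called neither leaf difference (FDR 0.143 in B128 and 0.177 in B47). UP12_3445, with FAD-binding and berberine bridge domains, differed by 0.87, 1.63, -3.96 and -3.43, and its B128 leaf arrays also overlapped. UP12_17900, a P-glycoprotein of the membrane transporter family, differed by 2.75, 0.74, -2.70 and -2.55. UP12_20011, of the 2-oxoglutarate and iron-dependent oxygenases, differed by 1.25, 1.32, -2.57 and -2.03. These 4 had larger differences in root than in leaf in most comparisons. The others had smaller ones. The putative nucellin UP12_13265, the DnaJ-domain chaperone UP12_24061, the glyoxalase UP12_22165, the lysine pathway enzyme dihydrodipicolinate synthase UP12_29530, the glycine-rich protein UP12_29346 and the beta-glucosidase-like UP12_15844 had leaf differences between 0.88 and 2.59 and root differences between -1.56 and -0.73. The unigenes with the highest mean signals were UP12_16657, UP12_6783, HAT22 and UP12_29346, with means over all arrays of 14.69, 14.03, 13.67 and 13.29. Levels of different probe sets are not compared.

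The difference between organs averaged over treatments is not made from the 4 drought differences, but the minimum level of 8 did use levels. That minimum was met in both organs by 131 of the 165, in leaf alone by 17 and in root alone by 17. Relative to root, 39 of the 165 were called higher in leaf (17.6% of all unigenes) and 76 lower in leaf (17.4%), and 50 were not called. The lower group made up 46.1% of the 165 and the higher group 23.6%. Without the minimum level, 39 of the 173 unigenes that met the 4 difference limits were called higher in leaf and 77 lower. Among the 131 the numbers were 23 and 63. The median leaf minus root difference of the 165 was -0.76, against -0.06 over all unigenes. With the yeast control spots set equal between arrays, the median of all unigenes moved by 0.39 and the split became 46 higher and 64 lower. The unigenes furthest toward leaf were UP12_17256, UP12_7826 and UP12_24356, at 7.21, 7.16 and 6.46, all 3 with the minimum level met in leaf alone, so these values are a description. UP12_17256 had 15.72, 15.66 and 15.72 in drought B128 leaves and 7.04, 5.74 and 6.09 in drought B128 roots, against 12.09, 11.32 and 11.70 in well-watered B128 leaves and 6.32, 8.82 and 6.77 in well-watered B128 roots. Its drought B128 leaf arrays were also at the top of the scale, where 4 of the 165 had a value within 0.5 of the highest of its array. The furthest toward root were UP12_198, UP12_4633 and UP12_1357, at -7.25, -6.03 and -5.84 (FDR 6.06e-13, 2.44e-11 and 4.05e-14). UP12_198 had 7.35, 8.78 and 7.34 in drought B128 leaves and 13.60, 13.12 and 13.24 in drought B128 roots, so the drought leaf remained far below the drought root. UP12_17256 and UP12_7826 are in the gene tables without a match, and the other 4 are not listed there.

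**Figure D3:**
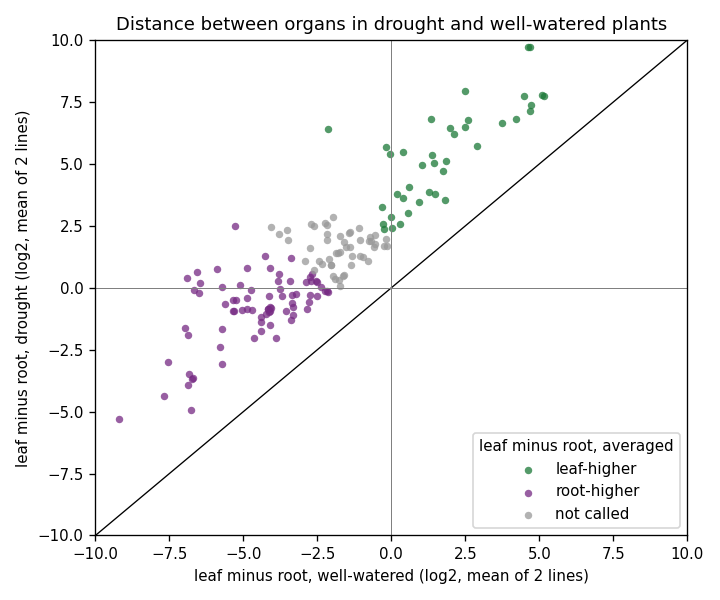
Leaf minus root difference (log2, mean of both lines) under drought (vertical) against that in well-watered plants (horizontal) for the 165 unigenes, coloured by the test averaged over treatments (39 higher in leaf, 76 higher in root, 50 not called); the black line marks equality. All points lie above the line, as the rule requires, and 68 unigenes turned from root-higher to leaf-higher in both lines.

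The pattern of the rule widened the distance between the organs for some unigenes and narrowed it for others. By the rule, leaf minus root rises under drought for all 165, so the counts of order and distance given here are a description. Apart from the turned order, they were not counted over all unigenes. In well-watered plants 77.6% of the 165 had a higher mean in root than in leaf in both lines, and 25 had a higher mean in leaf in both lines. Under drought 50 were higher in root and 105 higher in leaf in both lines. The order turned round in both lines for 68, of which 27 were at least 2-fold apart in each state. Of all 29471 unigenes, 1471 turned in that direction. For 98 of the 165 the 2 organs lay closer together under drought in both lines. The median leaf minus root difference was 0.94 under drought and -2.37 when well-watered, a shift the rule itself sets. Among the 76 called lower in leaf, the median distance was -0.59 under drought and -4.25 when well-watered, and among the 39 called higher in leaf it was 5.41 and 1.44. The RuBisCO and deaminase unigenes were in the first group, the trypsin inhibitors in the second, and the P450 81D8 unigenes in neither.

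**Figure D4:**
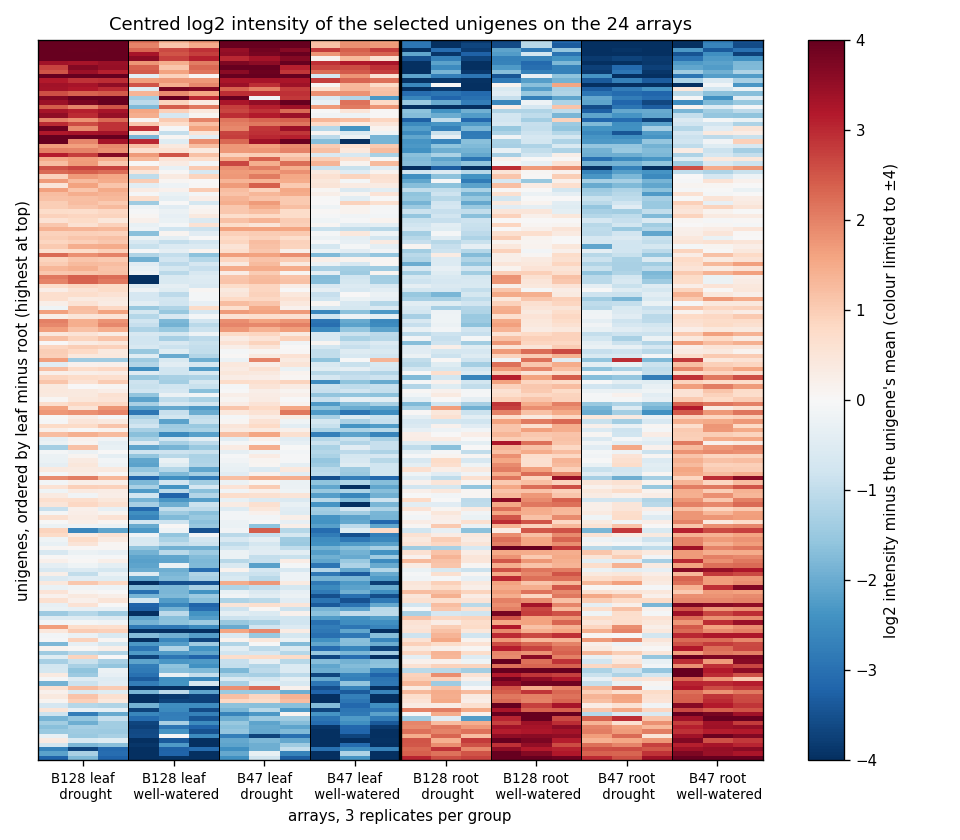
Log2 intensity minus each unigene's mean over 24 arrays (colour, limited to ±4) for the 165 unigenes, ordered from highest to lowest leaf minus root difference, with 3 arrays per group and drought left of well-watered. The bottom rows are dark blue in well-watered leaves, the top rows dark blue in roots, and the middle rows pale.

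Many unigenes were in the dimmest 25% of the arrays in the groups where they were low. The 25th percentile of an array lay between 8.06 and 8.18, and by definition 25% of all unigenes lie below it. Below it were 27 of the 165 in drought B128 leaf and 71 in well-watered B128 leaf, 33 in drought B47 leaf and 76 in well-watered B47 leaf. In root, 59 were below it in drought B128 and 22 in well-watered B128, and 60 in drought B47 and 23 in well-watered B47. The counts in drought leaf and well-watered root were below that share, and those in the other groups above it. Fold changes that rest on such low values are not exact. The replicate spread was also largest in well-watered B128 leaf, where the median standard deviation (SD) over the 165 was 0.48, against 0.20 in drought B128 leaf and 0.26 to 0.43 in the other groups.

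Few of the 165 were called between the lines. The paper reports that leaf relative water content at sampling was higher in droughted B47 than in droughted B128, with similar controls. In the drought plants, line and degree of dehydration therefore cannot be told apart. The difference between the drought responses, made from values the rule used, was at least 2-fold for 17 toward B128 and 13 toward B47 in leaf, and for 10 and 11 in root, as a description. At the FDR and fold limits limma called none of the 165 (1.53% of all unigenes were called higher and 0.892% lower in leaf, 0.095% and 0.224% in root). In leaf 28 had an unadjusted limma p under 0.05, or 17% of the 165 beside 20.6% of all unigenes. In root 22 did, or 13.3% beside 9.15%. Nothing is read from these counts, since the rule required agreement of the lines. Without replicate 2 of well-watered B128 leaf, 7 were called in leaf.

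The level difference between the lines, averaged over treatments, is not made from the 4 drought differences. The minimum level of 8 was met in both lines by 159 of the 165, in B128 alone by 3 and in B47 alone by 3. In leaf 10 of the 165 were called higher in B128 (2.14% of all unigenes) and none lower (2.16%). In root 4 were called higher in B128 (1.14%) and 1 lower (1.26%). Without the minimum level the numbers among the 173 were the same. None of the 165 was called in both organs and 150 were called in neither. Of all unigenes, 182 were called higher in B128 in both organs (0.618%) and 203 lower (0.689%). UP12_6581, known by code only, had 9.00, 8.63 and 9.54 in drought B128 leaves against 6.78, 6.86 and 6.85 in drought B47 leaves, and 7.58, 8.37 and 7.05 in well-watered B128 leaves against 5.29, 5.21 and 4.57 in well-watered B47 leaves. Every B128 leaf array was above every B47 leaf array, a difference of 2.43 in leaf, against 0.29 in root. It met the minimum level in drought B128 leaf alone, so this difference is a description with no test. UP12_4344, a putative lupeol synthase, had 13.79, 13.85 and 13.95 in drought B128 leaves against 11.83, 12.14 and 12.48 in drought B47 leaves, and 12.42, 11.54 and 11.94 in well-watered B128 leaves against 8.97, 10.12 and 9.45 in well-watered B47 leaves. The well-watered B128 leaves thus lay near the drought B47 leaves, and the averaged difference was 2.08 (SE 0.20, FDR 3.97e-07) in leaf and 0.22 (FDR 0.607) in root. Root means of UP12_4344 were near the floor, at 5.27 under drought and 6.25 when well-watered, which limits its root value. Of the 6 triterpene synthases it was the only one called between lines in leaf. UP12_12503 had 10.30, 9.09 and 9.29 in drought B128 leaves against 7.84, 6.87 and 7.57 in drought B47 leaves, and 7.00, 10.53 and 8.07 in well-watered B128 leaves against 6.16, 6.92 and 6.15 in well-watered B47 leaves. One well-watered B128 array at 10.53 stood above the others, and the difference was 2.13 (SE 0.44, FDR 0.00202). The other 7 called in leaf, UP12_21828, UP12_17928, UP12_22394, UP12_19338, UP12_11593, UP12_28391 and UP12_11551, had differences of 1.04 to 1.93 and no listed function. 8 of the 10 were among the unigenes called lower in leaf than in root.

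**Figure D5:**
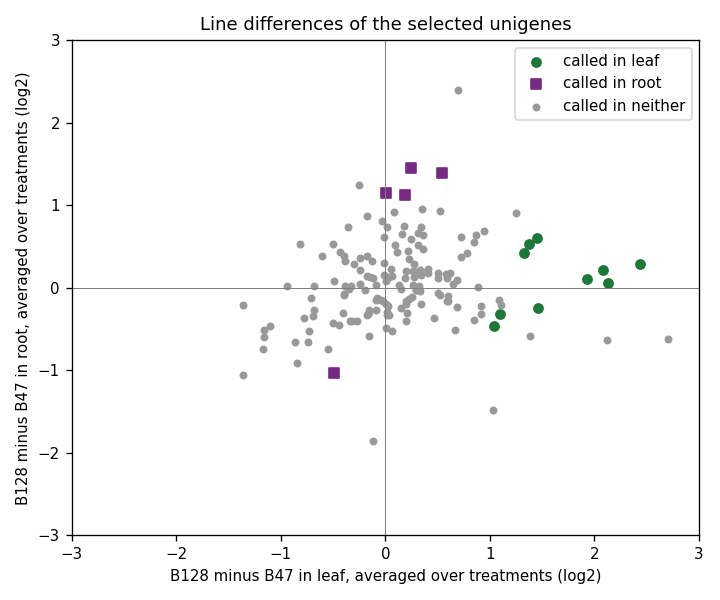
B128 minus B47 difference averaged over treatments in leaf (horizontal, log2) and in root (vertical, log2) for the 165 unigenes; green circles were called in leaf (10), purple squares in root (5) and grey points in neither (150). The leaf calls all lie to the right of 0, and 4 of the 5 root calls lie above 0.

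In root, QRT3 (UP12_3210) had 7.78, 7.98 and 7.41 in drought B128 against 5.87, 6.32 and 6.17 in drought B47, and 9.05, 8.61 and 8.69 in well-watered B128 against 7.53, 7.28 and 7.63 in well-watered B47. The arrays of the lines were apart under each treatment, with a difference of 1.45 (SE 0.17, FDR 6.37e-06), and in leaf it was 0.25 (FDR 0.367). P450 71B34 (UP12_14655) had 7.91, 7.85 and 7.15 in drought B128 roots against 6.60, 7.49 and 7.48 in drought B47 roots, and 10.84, 10.53 and 10.18 in well-watered B128 roots against 9.26, 8.75 and 8.02 in well-watered B47 roots. Its arrays overlapped under drought and were apart when well-watered, with a difference of 1.15 (FDR 0.00314), and its call was lost in 4 of 24 omissions of 1 array. Acyl carrier protein 3 (UP12_26041) was among the 4 calls, at 1.12, but met the minimum level in well-watered B128 root alone, so its value is a description. UP12_15863, without a listed function, was higher by 1.39 (FDR 0.00873), and its call was lost in 19 of 24 omissions of 1 array. UP12_15863 met the minimum level in leaf alone. Its low root means, 5.61 under drought and 6.85 when well-watered, limit its root value. The only unigene called lower in B128 root was the 12-oxophytodienoate reductase UP12_11992, which had 4.62, 4.71 and 4.63 in drought B128 roots against 5.22, 5.88 and 5.25 in drought B47 roots, and 5.76, 6.40 and 6.69 in well-watered B128 roots against 7.35, 8.03 and 7.26 in well-watered B47 roots. The lines did not overlap under either treatment, and the difference was -1.03 (SE 0.16, FDR 0.000203). Its call was lost in 3 of 24 omissions. Leaving out 1 array left 2 to 6 of the 165 called in root, the lowest number without replicate 1 of well-watered B128 root. The line difference in leaf minus that in root was called higher for 5 of the 165 (0.808% of all unigenes) and lower for 1 (1.1%), a contrast added after the values were seen.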

How the data were processed

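Total RNA of leaf and root was labelled and hybridised by the authors to NimbleGen arrays carrying a set of 60-mer probes per unigene. The deposited intensity values had been quantile-normalized and summarised per unigene by the authors with RMA; they are linear, and were log2-transformed here without a pseudocount (lowest intensity 4.52). No test used the 8 yeast spots. A limma 3.58.1 model (R 4.3.3) with 8 group means was fitted to the 29471 unigenes on 24 arrays (16 residual degrees of freedom), with Benjamini-Hochberg adjustment over all unigenes. The number of arrays limits the precision. The code was tested on simulated data. The rule, the lists of annotation words and the contrasts were chosen with earlier results of these data known. Unigenes were named as the first 8 by rank, those next to the limit, the extremes of the organ and line contrasts, the 4 with the highest mean, and all with a described function or a description shared by several. Family counts were taken after the values were seen. Replicates are separate pots by the sampling description. Same-numbered arrays of different groups correlated at a median of -0.03 (-0.396 to 0.572), with 20 of 84 pairs above 0.1. This does not settle whether numbers pair them. By the paper, leaflets and roots were taken from each plant, so leaf and root arrays can share pots. The main model treats the 24 arrays as independent. Alternatives comprised array weights, a trended robust prior, treat, other FDR limits, a low-signal filter, the rule without its minimum level (added after the values were seen), 3 other scalings, a block and the omission of each array. A unigene that the rule skips and 1 with a described function are not reported here.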

Additional observations from a re-analysis of the deposited data

Results flagged for a closer look

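The B128 minus B47 difference of 6 of the 165 unigenes differed between leaf and root, by limma's test of that difference averaged over treatments, a contrast chosen after the data were seen. At the fold and FDR limits 5 were higher in leaf (0.808% of all unigenes) and 1 lower (1.1%). The difference of differences was 2.15 for UP12_6581, which met the minimum level only in drought B128 leaf. For lupeol synthase UP12_4344 it was 1.87. UP12_4344 met that level only in leaf, with root means of 5.27 under drought and 6.25 when well-watered, near the floor. These 2 values are a description. The others were 1.83 for UP12_21828 (SE 0.29, FDR 0.001), 1.70 for UP12_17928 (SE 0.30, FDR 0.0019) and 1.50 for UP12_11551 (SE 0.31, FDR 0.0063). QRT3, UP12_3210, went the other way, at -1.20 (SE 0.24, FDR 0.005). The line difference was 2.43 in leaf and 0.29 in root for UP12_6581, and 0.25 in leaf and 1.45 in root for QRT3. Omitting 1 array left 4 to 8 of the 165 called, array weights 22 and treat none.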

How the results depend on the processing

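The single values followed under the alternatives were the extremes of the organ and line contrasts, and the organ differences of the unigenes ranked first. None of these changed sign under any alternative run. The drought differences of the named unigenes were not followed singly. Against a fold change of 2 in limma's treat, the calls numbered 41 in B128 leaf, 34 in B47 leaf, 34 in B128 root and 36 in B47 root, and 2 for the line difference in leaf and 0 in root. The line by drought difference, 0 in both organs, became 4 with array weights, 1 with a trended robust prior, 6 at an FDR of 0.05 and 2 with leaf arrays only in leaf, and 19 with array weights and 1 at an FDR of 0.05 in root. The line difference gave 20 calls with array weights and 17 at an FDR of 0.05 in leaf, and in root 17 with array weights, 3 without the 25% dimmest unigenes and 3 with root arrays only. The array-weight fit stopped before convergence. Omitting 1 array gave 94 to 110 calls in B128 leaf, 86 to 101 in B47 leaf, 78 to 109 in B128 root, 93 to 115 in B47 root, 0 to 7 and 0 to 0 for the line by drought difference in leaf and root, 113 to 116 for organ, and 9 to 14 and 2 to 6 for line in leaf and root. Without the rule's minimum level the organ contrast gave 116 calls and the line contrasts 10 and 5. The rule itself gave 69 unigenes at a minimum difference of 1, 144 to 181 without 1 array, and 200 with yeast spots set equal, 151 of them shared. A replicate block, whose numbers are not known to pair the arrays, gave 115 organ calls and 11 and 5 line calls in leaf and root, and lost UP12_15863. Signals near background limit the fold changes of low unigenes; the causes of these changes were not tested.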
